A study of Mus musculus with 2 samples.

Results

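The 4 connexin genes Gja1, Gja4, Gja5 and Gjc1 were followed across the cell types of the newborn mouse heart, and all 4 were found by symbol among the 27999 features of the count tables. The series used the newborn heart as a reference map of cell types for choosing transcription factors in reprogramming work. Cells came from whole hearts at P0 (the day of birth) of background strain C57BL6+ICR, with no genotype or treatment contrast, and were released by trypsin and captured with 10x Genomics 3' version 2 chemistry. There was 1 biological sample, loaded as 2 technical replicates, so both replicates measure 1 cell suspension and carry no biological spread. Whether several hearts were pooled is not given in the sources used here.

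Connexins are the proteins of gap junctions, channels that join the cytoplasm of neighbouring cells. In the heart they carry the electrical impulse from muscle cell to muscle cell, and in vessels they pass small signals along the wall. Gja1 encodes connexin 43, the main connexin of working heart muscle. Gja5 encodes connexin 40, known from atrial muscle, the fast ventricular conduction system and arterial endothelium. Gja4 encodes connexin 37, a connexin of endothelium, and Gjc1 encodes connexin 45, known from the sinoatrial and atrioventricular nodes, the early heart tube and vascular smooth muscle. Tbx3 encodes a T-box repressor of the conduction system that is known to act on Gja1 and Gja5.

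On GRCm38 with the GENCODE vM21 annotation, Gja1 lies on the plus strand of chromosome 10 at 56377330 to 56402513, and Gja4 on the minus strand of chromosome 4 at 127311421 to 127314039. Gja5 lies on the plus strand of chromosome 3 at 96904693 to 97077416, where Gpr89 and 2 antisense transcripts overlap it on the minus strand. Gjc1 lies on the minus strand of chromosome 11 at 102799579 to 102819700. Whether the counting used strand is not given in the sources used here, so reads of genes that overlap Gja5 cannot be told apart from its own.

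RefSeq promoter sequences (GRCm38.p6) were matched for Gja1, Gja4 and Gja5 and are shown because T-box and Nkx factors are known regulators of connexin genes in heart muscle. Each is the 250 bases before the RefSeq start of the gene, 5′ to 3′ on the gene's strand. For Gja4 this start is that of the GENCODE gene, and for Gja1 it lies 30 bases before it. For Gja5 it lies 127709 bases inside the GENCODE gene, which 1 long transcript extends upstream, and 14 bases before the start shared by 2 of the 3 GENCODE transcripts. The T-box core GGTGT and the Nkx core AAGTG were searched on both strands, and capitals mark the T-box core.
Gja5, chr3:97032152-97032401, plus strand: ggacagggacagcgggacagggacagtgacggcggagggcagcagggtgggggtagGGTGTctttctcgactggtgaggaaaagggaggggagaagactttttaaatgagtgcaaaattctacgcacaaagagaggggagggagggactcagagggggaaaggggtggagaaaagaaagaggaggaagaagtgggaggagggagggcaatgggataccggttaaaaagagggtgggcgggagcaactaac
Gja1, chr10:56377050-56377299, plus strand: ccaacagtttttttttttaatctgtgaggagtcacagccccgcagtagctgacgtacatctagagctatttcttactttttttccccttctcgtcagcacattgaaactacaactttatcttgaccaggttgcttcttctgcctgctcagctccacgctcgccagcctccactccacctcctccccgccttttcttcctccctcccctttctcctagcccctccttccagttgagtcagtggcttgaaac
Gja4, chr4:127314040-127314289, minus strand: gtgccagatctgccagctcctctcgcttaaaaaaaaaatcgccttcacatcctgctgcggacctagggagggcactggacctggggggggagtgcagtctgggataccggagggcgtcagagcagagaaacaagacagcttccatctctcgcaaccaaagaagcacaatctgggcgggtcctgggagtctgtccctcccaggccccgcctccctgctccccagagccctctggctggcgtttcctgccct
Of the 3 windows, the Gja5 window held the T-box core once, 194 bases before the RefSeq start, and the Nkx core once, 62 bases before it, with no overlap between them. The Gja1 and Gja4 windows held neither. The T-box core was present in 36.2% and the Nkx core in 40.8% of the 27025 RefSeq promoter windows of the same length, so these short motifs are common.

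The libraries held 5888 and 6047 barcodes with a median of 4831 and 4521 counts. Of 11935 barcodes, 8601 had 500 genes or more and under 0.5% of counts from haemoglobin genes. A gate on marker genes, none of them a connexin, placed 7818 of them (90.9%) in the 12 classes used here, while 424 with mixed markers and 247 below the gate stayed out. Each class had 33 to 3816 cells. None had a marker of another cell type among its 10 leading genes, other than Pf4 in macrophages, a gene of the megakaryocyte list. That list summed to 3248 CPM (counts per 1000000 summed counts of a class) in macrophages, with Itga2b at 0, and to 0 to 25 CPM in the other classes. In the kept set, 31 barcodes occurred in both libraries.

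Each gene was highest in a different set of classes. CPM are given with both technical replicates, and intervals (exact, 95%) cover counting error only.

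**Figure D1:**
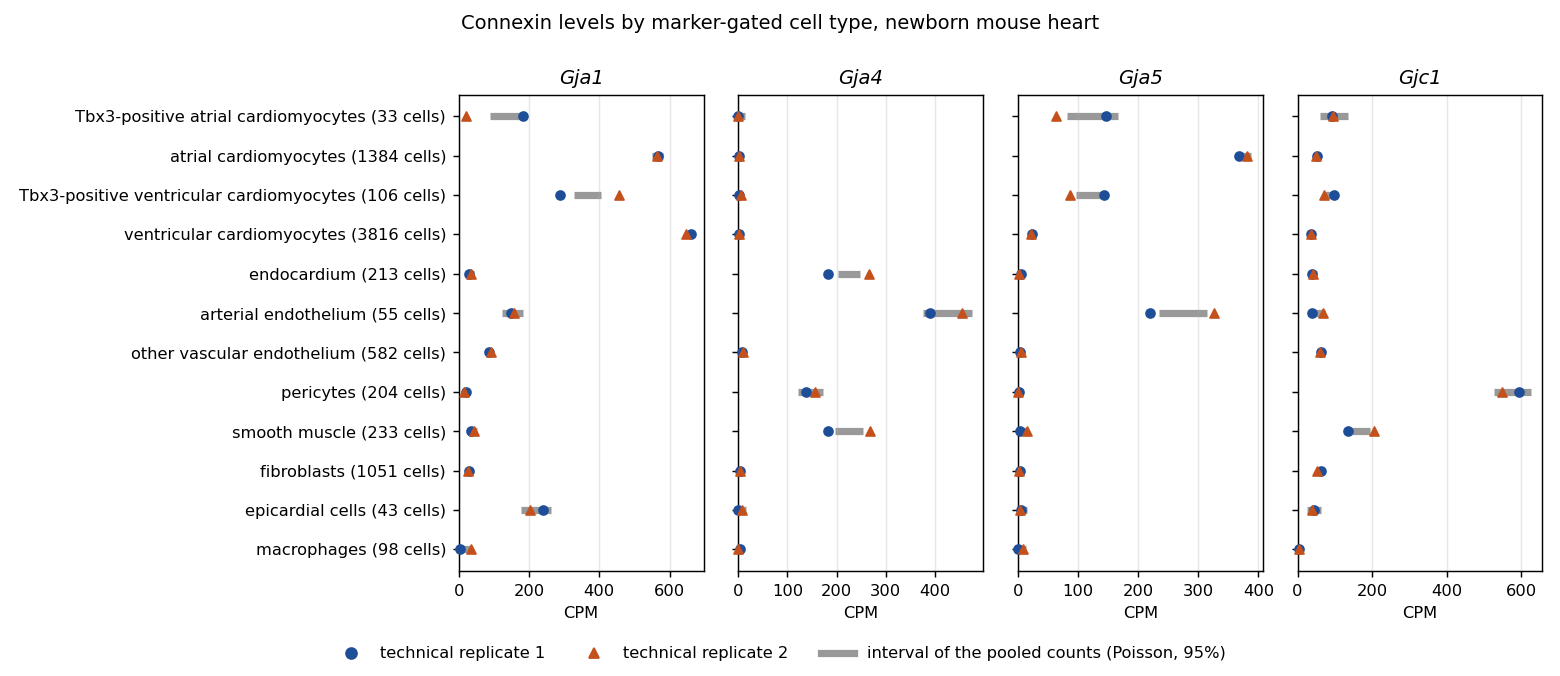
CPM of Gja1, Gja4, Gja5 and Gjc1 in the 12 marker-gated classes, with circles and triangles for technical replicates 1 and 2 and grey bars for the exact interval of the pooled counts. Gja1 was highest in working ventricular and atrial muscle, Gja4 in arterial endothelium, Gja5 in atrial muscle and arterial endothelium, and Gjc1 in pericytes.

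In working muscle, Gja1 and Gja5 had different chamber patterns. Gja1 was at 567 and 564 CPM in atrial cardiomyocytes (1384 cells), against 661 and 646 CPM in ventricular cardiomyocytes (3816 cells). Both chambers thus carried the transcript at a similar level, with the ventricular level the higher one in each replicate. Gja5 was at 368 and 381 CPM in atrial cardiomyocytes, against 23.4 and 21.8 CPM in ventricular cardiomyocytes. The chambers were far apart for Gja5 in both replicates. Gjc1 was at 53.0 and 50.8 CPM in atrial cardiomyocytes, against 37.3 and 36.2 CPM in ventricular cardiomyocytes. Gja4 was scarce in both, with 12 counts in all atrial and 31 in all ventricular cardiomyocytes.

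A gene passed the rule of size when its CPM differed 2-fold in the same direction in each technical replicate, with at least 20 counts in the higher class and at least 20 expected in the other at the same rate. With 1 biological sample no test was possible. Of 9379 genes with enough counts, 9.32% were higher and 1.83% lower in atrial than in ventricular cardiomyocytes. Among the connexins Gja5 passed, at 16.5-fold the ventricular level (interval 15.1 to 18.1, with 15.7 and 17.5 in the replicates). Gja1 stood at 0.866 times the ventricular level (interval 0.838 to 0.894) and Gjc1 at 1.41 times (interval 1.26 to 1.58), and neither passed.

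Mitochondrial transcripts moved with the chamber. They took a median of 21.7% of counts in atrial and 41.2% in ventricular cardiomyocytes, and the median gene stood at 1.34 times its ventricular level in atrial cells. Without mitochondrial and haemoglobin genes in the total, the median gene fell to 1.03 times, a shift of -0.37 on the log2 scale, and the share of higher among all genes past the rule was 63.3%, against 83.6% with them. On that scale Gja5 was 12.7-fold higher, Gja1 was at 0.668 times and Gjc1 at 1.09 times the ventricular level. The Gjc1 difference was thus close to that of the median gene on either scale.

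Single cells showed the same chamber contrast. After each cell was thinned to 2000 counts, Gja1 was detected in 65.2% of atrial and 68.2% of ventricular cardiomyocytes, against 2.11% of macrophages. Without thinning the shares were 87.7%, 90.0% and 8.16%, at median depths of 5678, 6316 and 5127 counts. Gja5 was detected in 49.9% of thinned atrial cardiomyocytes and 3.84% of ventricular ones, against 0.678% of fibroblasts (78.2%, 8.33% and 1.62% unthinned, with a median of 5607 counts per fibroblast). In atrial cells both transcripts were seen together in 33.4% of thinned cells. Gja5 was found in 51.1% of the atrial cells with Gja1 and 47.7% of those without, so the detection of one said little about the other.

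The small ventricular Gja5 signal was unevenly spread. It came from 318 of 3816 cells, and 72 cells held 50% of its 574 counts. Ventricular cardiomyocytes with 3 or more thinned counts of Nppa (179 cells), the atrial natriuretic peptide gene that marks trabecular muscle, had 79.6 and 68.5 CPM of Gja5. Those with no Nppa count (2783 cells) had 18.9 and 17.7 CPM. Between these groups, 0.618% of 2752 genes were higher and 0.0727% lower by the rule, and Gja5 was among the higher ones at 4.10-fold (interval 3.23 to 5.17). Gja1 was at 0.950 times and Gjc1 at 1.19 times the level of Nppa-negative cells, and neither passed. Irx5, an Iroquois factor of the ventricle, was higher by 2.94-fold in Nppa-high cells, and Hey2, a repressor found in compact ventricular muscle, was lower at 0.337 times. Sln, an atrial transcript that marks RNA of atrial cells, was at 121 and 81.0 CPM in Nppa-high cells, against 34.9 and 49.1 CPM in Nppa-negative cells. At the atrial proportion of Gja5 to Sln this comes with 5.67 CPM of Gja5 in Nppa-high cells, where 75.3 CPM was measured.

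The level of Gja5 was also compared within the atria. Atrial cardiomyocytes with a thinned count of Bmp10, a ligand of right atrial muscle (481 cells), had 393 and 443 CPM of Gja5, against 356 and 347 CPM in those without one (883 cells). Of 6595 genes, 0.667% were higher and 0.773% lower in Bmp10-positive cells, and no connexin was among them. Gja5 was at 1.19 times, Gja1 at 1.11 times and Gjc1 at 0.761 times the Bmp10-negative level.

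No connexin passed the rule between cycling and resting muscle. Cells were called cycling with 2 or more thinned counts over 10 cell cycle genes and resting with 0. Cycling ventricular cardiomyocytes (334 cells) had 477 and 476 CPM of Gja1, against 689 and 665 CPM in resting ones (3163 cells), a ratio of 0.703 (interval 0.664 to 0.745). In the atria, cycling cells had 417 and 519.5 CPM, against 588 and 561 CPM in resting cells, a ratio of 0.814. Gjc1 pointed the other way in both chambers, at 1.49 times the resting level in ventricular and 1.45 times in atrial cells. The rule was passed by other genes: 8.94% were higher and 0.377% lower in cycling ventricular cells, and 8.31% and 0.698% in cycling atrial cells. Cycling cells were deeper, with medians of 7627 against 6312 counts in ventricular and 7242 against 5600 counts in atrial cells, and the part of depth was not tested.

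Cardiomyocytes with a count of Tbx3 differed from the other cardiomyocytes of their chamber, and Gja5 moved in opposite directions in ventricle and atrium. There were 106 such cells among ventricular and 33 among atrial cardiomyocytes. The conduction system genes chosen as a check had a higher summed level in both chambers. It was 265 and 95.3 CPM in the replicates of Tbx3-positive ventricular cells, against 13.6 and 12.0 CPM in other ventricular cardiomyocytes. In Tbx3-positive atrial cells it was 1522 and 2461 CPM, against 100.1 and 129.6 CPM in other atrial cells. All 8 genes of this check were counted in Tbx3-positive atrial cells, with Shox2, a sinoatrial node factor, at 243 against 7.78 CPM in other atrial cells. In Tbx3-positive ventricular cells Shox2 and Isl1 were at 0, and Cpne5, a gene of the ventricular conduction system, was at 175 and 69.1 CPM, against 6.18 and 5.32 CPM in other ventricular cells. Cpne5 thus made up most of the ventricular sum, and only 1 of the 8 genes, Cpne5, had enough counts there for the rule of size.

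In the ventricle, Tbx3-positive cells had more Gja5 and less Gja1. Gja5 was at 143 and 85.8 CPM in Tbx3-positive cells, against 23.4 and 21.8 CPM in other ventricular cardiomyocytes. Gja1 was at 289.7 and 457 CPM in Tbx3-positive cells, against 661 and 646 CPM in the others. Gjc1 was at 97.2 and 71.5 CPM, against 37.3 and 36.2 CPM. For these 3 genes both Tbx3-positive replicates lay on 1 side of both replicates of the other ventricular cells. Of 2593 genes, 3.09% were higher and 0.0771% lower by the rule, and of the connexins Gja5 passed at 5.18-fold (6.10 and 3.93 in the replicates, interval 4.19 to 6.36). Gjc1 was 2.33-fold higher (2.61 and 1.97) and Gja1 at 0.557 times (0.438 and 0.708), and both missed the rule in replicate 2. The median gene stood at 1.23 times its level in other ventricular cells, and 97.6% of all genes past the rule were higher. Without mitochondrial and haemoglobin genes in the total, these values were 1.04 times and 91.2%. On that scale Gja5 was at 4.39 times, Gjc1 at 1.98 times and Gja1 at 0.472 times the level of other ventricular cells. Of the 106 cells, 34 had a count of Gja5 and 6 held 50% of its 111 counts.

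In the atrium, Tbx3-positive cells had less of both Gja1 and Gja5. Gja1 was at 183 and 21.1 CPM in Tbx3-positive cells, against 567 and 564 CPM in other atrial cardiomyocytes. Gja5 was at 146 and 63.4 CPM, against 368 and 381 CPM. Both replicates lay below the other atrial cells, but replicate 2 had only 10 Tbx3-positive atrial cells, with 2 counts of Gja1 and 6 of Gja5. Of 747 genes, 3.21% were higher and 1.47% lower by the rule. Gja1 passed as lower at 0.227 times (0.323 and 0.0374, interval 0.159 to 0.315), and Gja5 at 0.315 times (0.396 and 0.166, interval 0.216 to 0.443). Gjc1 was at 91.7 and 95 CPM, against 53.0 and 50.8 CPM, or 1.79 times, with too few counts for the rule. Gja4 had 0 counts in the Tbx3-positive atrial cells, where 3 counts would be 10.7 CPM and the exact interval reaches 13.2 CPM. Of the 36 Gja1 counts 10 lay in 1 cell, and of the 33 Gja5 counts 7 did. Among all genes past the rule, the share of higher ones was 68.6%, and 55.9% without mitochondrial and haemoglobin genes in the total.

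Over all cardiomyocytes together, Tbx3-positive cells (147 cells) had 93.9 and 81.7 CPM of Gjc1, against 41.6 and 40.1 CPM in the other 5281. These groups also held the cells left unsorted by chamber, 8 of them Tbx3-positive and 81 not. Gjc1 passed the rule here at 2.17-fold (interval 1.77 to 2.62), in a comparison where 2.62% of 3666 genes were higher and 0.109% lower. Without mitochondrial and haemoglobin genes in the total it was 1.90-fold and no longer reached 2-fold. Gja1 was at 259.6 and 348 CPM in Tbx3-positive cells, against 636 and 625 CPM in the others, or 0.473 times, short of the rule in replicate 2. Gja5 was at 1.02 times, a value that joins a higher ventricular and a lower atrial level.

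Cells with more Tbx3 counts had less Gja1 still. Ventricular Gja1 was 654 CPM with no Tbx3 count, 409.8 CPM with 1 count and 147 CPM with 2 or more (17 cells). Atrial Gja1 was 566, 175 and 41.3 CPM in the same order, the last from 9 cells and 4 counts. This order held for pooled counts, but not in each replicate: in atrial replicate 2 the value was 0 with 1 count (4 cells) and 32.4 CPM with 2 or more. Ventricular Gja5 was 22.7, 127 and 73.3 CPM, where all 12 counts of the last group lay in replicate 1. Gjc1 stood at 36.8, 84.5 and 91.6 CPM in the ventricle and at 52.0, 92.8 and 93.0 CPM in the atrium.

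**Figure D2:**
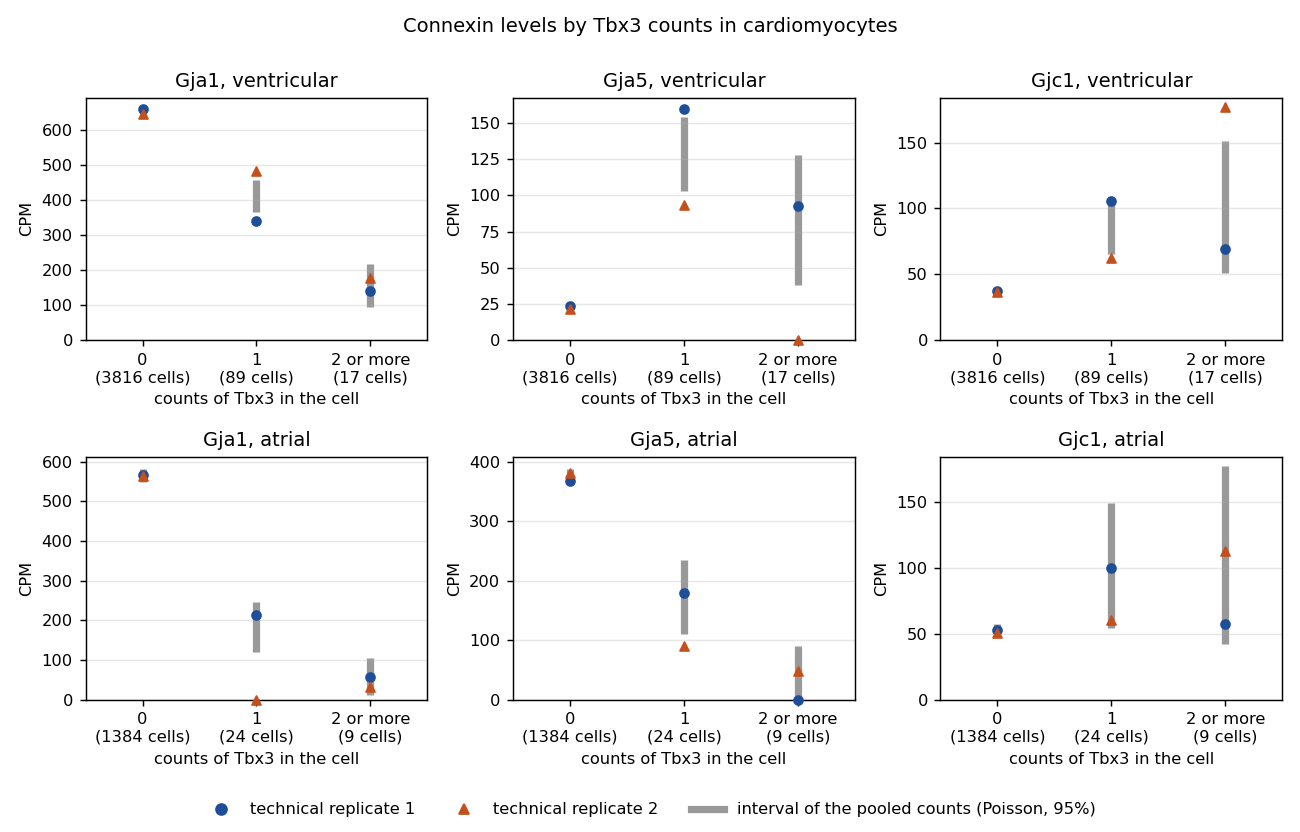
CPM of Gja1, Gja5 and Gjc1 in ventricular (top) and atrial (bottom) cardiomyocytes by the counts of Tbx3 in the cell, with circles and triangles for technical replicates 1 and 2 and grey bars for the exact interval of the pooled counts. Pooled Gja1 was lower with each step, and Gja5 was higher in Tbx3-positive ventricular and lower in Tbx3-positive atrial cells.

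Other measures moved with Tbx3 detection. Tbx3-positive ventricular cells had a median of 7736 counts and 27.3% mitochondrial counts, against 6316 counts and 41.2% in other ventricular cells. In Tbx3-positive atrial cells these were 8427 counts and 16.9%, against 5678 counts and 21.7% in other atrial cells. Tbx3 was also counted in vascular endothelium and pericytes, at 54.0 CPM in the non-arterial vascular endothelium and 65.3 CPM in pericytes. The vascular list (12 of 12 markers counted) summed to 502 CPM in Tbx3-positive and 589 CPM in other ventricular cells. The pericyte list summed to 212 CPM (5 of 7 counted, Vtn and Higd1b at 0) in Tbx3-positive and 185 CPM in other ventricular cells. In Tbx3-positive atrial cells the vascular list summed to 604 CPM (9 of 12 counted, with Pecam1, Aplnr and Ly6c1 at 0) and the pericyte list to 21.4 CPM (4 of 7), against 506 and 50.5 CPM in other atrial cells. The 5 atrial markers summed to 637 CPM (741 and 507 in the replicates) in Tbx3-positive and 322 CPM (292 and 354) in other ventricular cells. Of these, Sln was at 43.4 CPM in Tbx3-positive and 45.9 CPM in other ventricular cells, so the difference lay in the other atrial markers. The arterial endothelial list, of a cell type with high Gja5, summed to 57.2 CPM (70.5 and 40.5 in the replicates) in Tbx3-positive and 12.6 CPM in other ventricular cells, with 6 of 10 counted and Sema3g, Bmx, Mecom and Gkn3 at 0. In Tbx3-positive atrial cells it summed to 161 CPM (119 and 243), with 4 of 10 counted and Sema3g, Bmx, Sox17, Dll4, Jag2 and Gkn3 at 0, against 56.8 CPM in other atrial cells. The smooth muscle list summed to 328 CPM (449.8 and 176) in Tbx3-positive and 289 CPM in other ventricular cells. In the atrium it was at 675 CPM (799 and 433) in Tbx3-positive and 185 CPM in other cells, with 6 of 6 counted. The trabecular list, in which Slc5a1 was at 0, summed to 5625 CPM in Tbx3-positive atrial cells, against 20960 CPM in other atrial cells. Its replicates were far apart in the Tbx3-positive atrial cells, at 8440 and 116 CPM. In the ventricle it was at 515 CPM in Tbx3-positive and 578 CPM in other cells. Bmp10, the right atrial marker, was at 21.6 and 0 CPM in Tbx3-positive atrial cells, against 478 and 558 CPM in other atrial cells. The part of these in the connexin differences was not tested.

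Arterial endothelium had high Gja4 and Gja5. An arterial marker score set 55 of 637 vascular endothelial cells apart, and 32 cells lay close to the threshold. The class is thus a range of the score, and whether it forms a separate cluster was not tested. Gja4 was at 391 and 455 CPM in arterial endothelium, against 8.45 and 8.60 CPM in the other vascular endothelium. Gja5 was at 219 and 326 CPM, against 2.64 and 4.45 CPM. The groups were far apart for both genes in each replicate. Of 2946 genes, 2.38% were higher and 0.577% lower in arterial endothelium, with Gja4 at 49.7-fold (interval 37.6 to 66.6) and Gja5 at 78.1-fold (interval 51.3 to 124) among the higher ones. Gja1 was at 148 and 156 CPM, against 85.5 and 91.3 CPM, or 1.72 times (interval 1.38 to 2.12), and Gjc1 at 0.866 times. Neither of those passed the rule. Arterial cells had a median of 11181 counts, against 9187 counts in the others, and the part of depth was not tested.

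Along the arterial score, Gja4 was graded and Gja5 was found almost wholly at the top. Gja4 was 3.24, 26.9, 124 and 817 CPM in the bands under 0.6, 0.6 to 0.9, 0.9 to 1.2 and 1.2 or more. Gja5 was 2.52, 6.88, 0 and 633 CPM in the same bands. The 32 cells of the third band had no count of Gja5, where 3 counts would be 7.77 CPM and the exact interval reaches 9.56 CPM. All 185 arterial counts lay in the 23 cells of the top band. Of those counts, 50% lay in 3 cells. Gja1 followed another course, at 82.3, 109, 194 and 95.8 CPM, with its peak in the third band in both replicates. Between the top band and the 582 cells under 0.9, 6.17% of 1312 genes were higher and 3.43% lower by the rule, with Gja4 at 96.0-fold and Gja5 at 181-fold among the higher ones. In the top band Gja1 was at 1.02 times the level of all vascular endothelium below a score of 1.2. In 15 of the 23 top cells both Gja4 and Gja5 were counted, in 4 Gja4 alone, in none Gja5 alone and in 4 neither.

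**Figure D3:**
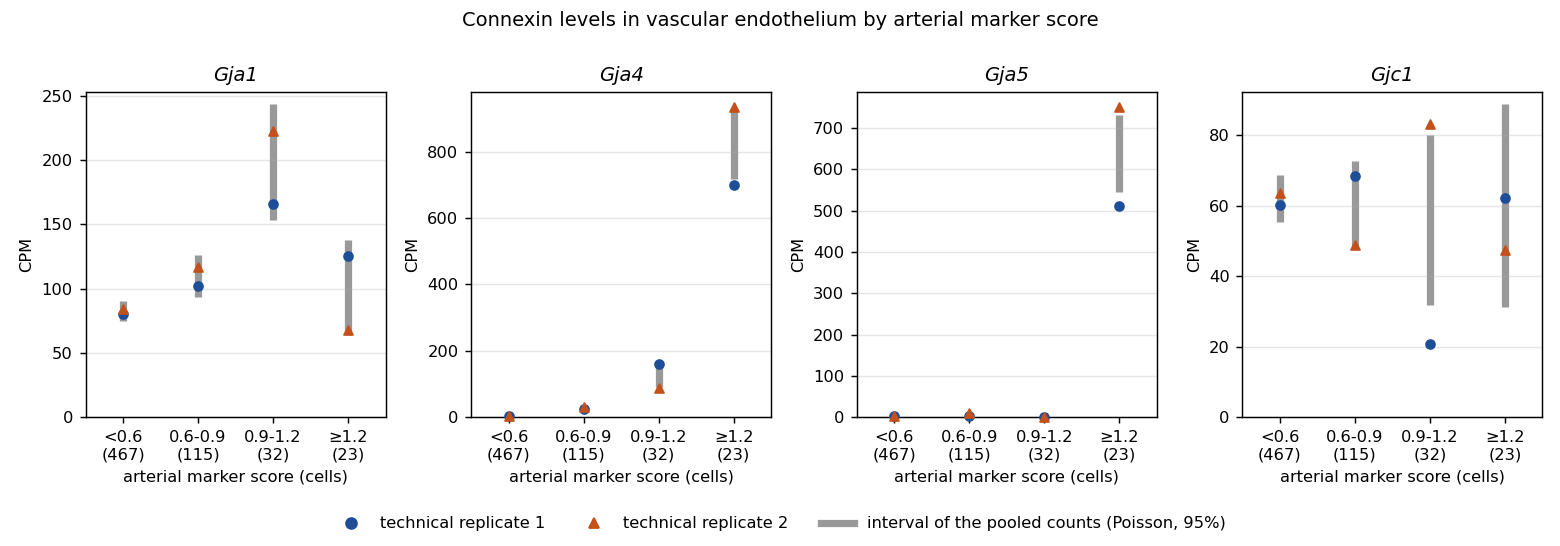
CPM of the 4 connexins in vascular endothelium by bands of the arterial marker score, with cell numbers in brackets, circles and triangles for technical replicates 1 and 2, and grey bars for the exact interval of the pooled counts. Gja4 reached 124 and 817 CPM in the upper bands, while Gja5 was at 0 in the third band and 633 CPM in the fourth.

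The endocardium, the inner lining of the chambers, held Gja4 without much Gja5. Gja4 was at 182 and 266 CPM in endocardium (213 cells), against 39.7 and 49.5 CPM in vascular endothelium as a whole. Gja1 was at 30.7 and 35.8 CPM, against 90.6 and 97.2 CPM. Of 6522 genes, 10.7% were higher and 7.33% lower in endocardium, with Gja4 at 5.04-fold (interval 4.35 to 5.84) as higher and Gja1 at 0.355 times (interval 0.267 to 0.464) as lower. Gjc1 stood at 0.672 times and did not pass. Gja5 had 6 counts in endocardium, against 210 in vascular endothelium, too few for the rule. The Gja4 signal was uneven between endocardial cells: 100 of 213 had a count, 13 held 50% of the 390 counts and 1 held 40. Smooth muscle markers summed to 1656 CPM in endocardium (5 of 6 counted, Myh11 at 0), against 1321 CPM in arterial and 194 CPM in other vascular endothelium, and their part was not tested.

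Around the vessels, Gjc1 and Gja4 were found in both mural cell types. Gjc1 was at 595 and 550.0 CPM in pericytes (204 cells), the mural cells of capillaries, against 135 and 205 CPM in smooth muscle (233 cells). Pericytes were above smooth muscle in both replicates. Of 3944 genes, 8.67% were higher and 7.33% lower in pericytes, with Gjc1 at 3.40-fold (4.42 and 2.68, interval 2.88 to 4.04) among the higher ones. Gja4 was at 137 and 156 CPM in pericytes, against 182 and 269 CPM in smooth muscle, or 0.652 times, and did not pass. After thinning, Gjc1 was detected in 63.2% of pericytes and 26.5% of smooth muscle cells, against 1.05% of macrophages (83.8%, 42.5% and 2.04% unthinned, at medians of 4034, 4442 and 5127 counts). Smooth muscle cells with Gjc1 had Gja4 more often than those without (47.5% of 61 against 19.5% of 169), whereas in pericytes the shares were 23.6% of 127 and 21.6% of 74. The pericyte list summed to 11921 CPM in pericytes and 2735 CPM in smooth muscle, and the part of pericyte RNA in the Gjc1 level of smooth muscle was not tested.

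Low levels outside muscle were set beside the level of heart muscle transcripts in the same classes. Tnnt2, the cardiac troponin T gene, stood at 198 to 759 CPM in the 8 classes that are not muscle of the heart wall, or 4.09% to 15.7% of its ventricular level. At the ventricular proportion of Gja1 to Tnnt2, this would bring 29.4 CPM of Gja1 to endocardium and 36.6 CPM to fibroblasts, where 33.3 and 28.3 CPM were measured. Pericytes (18.5 CPM), smooth muscle (38.6 CPM) and macrophages (18.2 CPM) were below their proportion. Gja1 in these 5 classes was thus at most 1.13 times the level in proportion to Tnnt2. Whether it came from these cells or from muscle RNA was not tested. Above it by a clear margin were epicardial cells, at 239 and 203 CPM or 6.61 times the proportion, arterial endothelium at 5.68 times and other vascular endothelium at 3.18 times. Gja5, set against the atrial transcript Sln in the same way, was at 0.893 times its proportion in fibroblasts, 1.29 times in endocardium, 1.54 times in other vascular endothelium and 115 times in arterial endothelium.

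**Figure D4:**
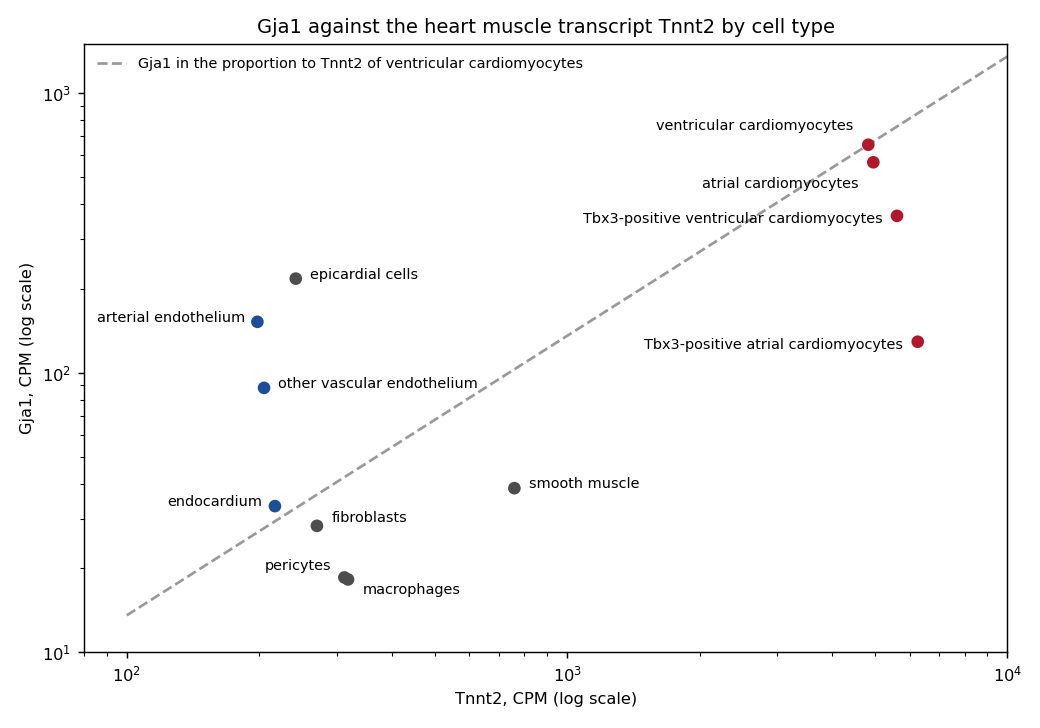
Gja1 against Tnnt2 in CPM on log scales for the 12 classes (red, cardiomyocytes; blue, endothelium; grey, other), with a dashed line at the ventricular proportion. Epicardial cells and both vascular endothelial classes lay above the line, fibroblasts and endocardium near it, and Tbx3-positive cardiomyocytes below it.

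By counting error and the order in both replicates, the classes as gated were mostly told apart at the top and not at the bottom. For Gja1, ventricular, atrial and Tbx3-positive ventricular cardiomyocytes, epicardial cells and arterial endothelium followed each other with intervals that excluded equality and the same order in both replicates. Tbx3-positive atrial cardiomyocytes came next and were not told apart from arterial endothelium above them or other vascular endothelium below them, while these endothelial classes differed from each other (1.72 times). For Gja4 the order was arterial endothelium, then endocardium and smooth muscle at an equal 224 CPM, then pericytes, with a 17.1-fold step down to other vascular endothelium. For Gja5 atrial cardiomyocytes came before arterial endothelium (1.37-fold), both Tbx3-positive classes at 118 CPM each and ventricular cardiomyocytes. The first of these steps depended on the arterial threshold. Endothelium with an arterial score of 1.2 or more had 633 CPM of Gja5, above the 375 CPM of atrial cardiomyocytes. Smooth muscle and the 6 classes below it had 1.09 to 8.98 CPM of Gja5. For Gjc1, pericytes and smooth muscle led, both Tbx3-positive classes followed at 92.9 and 85.8 CPM, and 7 further classes lay between 36.8 and 61.3 CPM with no neighbours apart. Macrophages were lowest, at 3.63 CPM.

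The rest of the connexin family was sparse. Of 16 other connexin genes, 8 had no count in any barcode and 6 had 1 to 14. Gja3, known as a lens connexin, had 191 counts and reached 20 in each replicate of ventricular and atrial cardiomyocytes, at 8.02 CPM in atrial and 3.64 CPM in ventricular cells. Of the 3 pannexins, which form channels of a related shape, Panx2 was higher in atrial than ventricular cardiomyocytes (10.2 against 1.34 CPM, 7.57-fold). Panx1 was higher in endocardium than in vascular endothelium (29.2 against 6.50 CPM, 4.49-fold), and Panx3 had 2 counts.

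The intercalated disc is the contact zone where gap junctions sit beside desmosomes and adherens junctions. Of 18 disc partner genes, all 18 had enough counts between the chambers and none passed the rule, with a median of 0.43 on the log2 scale against 0.42 over all genes tested. Cdh2, the N-cadherin gene, stood at 0.773 times and Tjp1, the gene of a scaffold that binds connexin 43, at 1.72 times the ventricular level in atrial cells. In Tbx3-positive ventricular cells 15 were tested and none passed, with a median of 0.29 against 0.30. In Tbx3-positive atrial cells 6 were tested and none passed, with a median of 0.14 on the log2 scale against 0.14 over all genes tested.

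Of 14 factors known to act on connexin genes, 12 had enough counts between the chambers. Tbx5 (15.9-fold), Hey1 (11.4-fold) and Tbx2 (5.84-fold) were higher in atrial cells, and Irx5, Irx4, Hey2 and Irx3 were lower, of which Irx4 and Hey2 belong to the ventricular gate. In Tbx3-positive ventricular cells, 7 were tested. Beside Tbx3, which defined the class, Irx5 at 102 against 25.1 CPM and Irx3 at 82.6 against 24 CPM were higher, and none was lower. Irx3 is known to activate Gja5 in the ventricular conduction system. In arterial endothelium Hey1 and Sox17 were higher, and both are markers of its gate.

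By the profile over the 12 classes (log2(CPM+5), Pearson r, genes of at least 200 counts), the genes nearest to Gja1 among 10990 were Casz1 (r = 0.925), Mfn1, Larp1b, Acacb and Fam160a1 (0.897). Those nearest to Gja4 were Setd3 (0.886), C2cd2, Olfml2a, Trdmt1 and the Notch ligand gene Jag1 (0.859). Nearest to Gja5 were Klhl32 (0.889), 4930481A15Rik, Nebl, Azin1 and Gprin3 (0.845), and nearest to Gjc1 were Limd1 (0.963), Arhgef17, Gnai1, Orc4 and Nemp1 (0.913). The classes share libraries and differ in depth, and some neighbours held in 1 replicate only: Nemp1 had r = 0.933 with Gjc1 in replicate 1 and 0.075 in replicate 2.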

How the data were processed

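Both technical replicates of 1 biological sample were used as deposited. Each deposited matrix gave raw counts by gene and barcode in whole numbers, not normalized, per the file headers and the values; whether a count is a molecule or a read is not stated there. Cell Ranger 2.1.0 and mm10 appear in the submitters' processing notes. Both label records carry 1 internal identifier, while the columns of the second matrix carry another; each matrix was kept under its record. Total counts were 34668956 and 33871582. Of 27999 features, 354 had no symbol in GENCODE vM21 (GRCm38).

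Barcodes had 500 genes or more and under 0.5% haemoglobin counts, which removed 3148 haemoglobin-rich ones. A marker score (mean log2(1 + counts per 10000)) was divided by the mean of the 50 highest barcodes. The best cell type needed 0.45 and 3 markers, with other families at most 0.6 times it. The chamber score is the atrial minus the ventricular panel score, with at least 1 in size (89 of 5428 cardiomyocytes unsorted). Tbx3-positive means at least 1 count, and arterial an arterial panel score of at least 0.9. These thresholds were set after the scores were seen. No doublet caller was run: barcodes of mixed markers were left out, and an alternative dropped the 5% with the most counts. Poisson, binomial and conditional binomial intervals are exact at 95% and cover counting error only. With 1 biological sample no p-value is given. The condition on expected counts was added after a test of the rule on simulated data showed calls among unchanged genes. Thinning to 2000 counts (seed 0) left out 123 of 8601 barcodes.

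The members, lists and comparisons were chosen with earlier results of these data known. Some items are not reported here. Genes named are the 4 members, other connexins and pannexins with 20 counts in each replicate of a class, the 4 list genes with the largest ratios, conduction check genes and the 5 nearest profiles; Panx3, Cdh2, Tjp1, Gpr89, Tnnt2, Sln, Tbx5, Hey1, Tbx2, Bmp10 and Pf4 were named for other reasons, after their values were seen. Alternatives covered the total, barcode filters, gate, doublets, shared barcodes, weighting, replicates and thresholds. The scripts ran under Python 3.11.15 with matplotlib 3.10.9, pandas 2.3.3, scipy 1.17.1 and numpy 2.4.6.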

Additional observations from a re-analysis of the deposited data

Results flagged for a closer look

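Gja5 went in opposite directions with Tbx3 in the 2 chambers. In the ventricle it was at 143 and 85.8 CPM in Tbx3-positive cells, against 23.4 and 21.8 CPM in other cells, a ratio of 5.18. In the atrium it was at 146 and 63.4 CPM in Tbx3-positive cells, against 368 and 381 CPM in other cells, a ratio of 0.315. Both technical replicates showed each direction, and the Tbx3-positive cells of both chambers had the same pooled level of 118 CPM. The difference between chambers was not tested, because there was 1 biological sample.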

How the results depend on the processing

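Of 243 recomputed connexin ratios, 211 stayed within the counting interval of the main value and 32 moved beyond it, as did 64 of 540 recomputed levels. No ratio changed direction where the main interval excluded 1. Ratios with a main interval that held 1 were not counted as reversed. Among them, Gja5 in Tbx3-positive over all other cardiomyocytes was 1.02 and ran from 0.461 to 1.33. Without mitochondrial and haemoglobin genes in the total, Gja5 was 12.7-fold (atrial over ventricular) and Gja1 0.472 times (Tbx3-positive over other ventricular). With haemoglobin under 0.1%, Gja4 was 5.94-fold (endocardium over vascular endothelium) and Gjc1 4.28-fold (pericytes over smooth muscle, a comparison added after seeing the data). A wider gate margin gave Gja5 49.9-fold (arterial), leaving out barcodes over 50% mitochondrial counts gave Gja5 14.2-fold (atrial), and leaving out the 5% of barcodes with the most counts gave Gja4 3.84-fold (endocardium). With at least 2 Tbx3 counts, Gja1 was 0.224 times and Gja5 3.23-fold in the ventricle, and 0.073 and 0.0828 times in the atrium. The atrial Gja5 value rests on 3 counts in 1 of 9 cells, with 0 counts in replicate 1. With an arterial score of 1.2 or more, Gja5 was 191-fold and Gja1 1.02 times.

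Without 1 technical replicate in turn, the Tbx3 ratios were 0.438 to 0.67 (Gja1) and 4 to 6.09 (Gja5) in the ventricle, and 0.0374 to 0.343 (Gja1) and 0.166 to 0.42 (Gja5) in the atrium. Gja5 over all cardiomyocytes was 0.674 to 1.33, and Gjc1 in pericytes over smooth muscle 2.68 to 4.42. With a 3-fold rule and with no minimum of counts, the genes past the rule were 524 and 2228 (main 1046) between atrial and ventricular cells. They were 37 and 898 (main 82) for Tbx3 in the ventricle, 18 and 799 (main 35) for Tbx3 in the atrium, and 40 and 757 (main 87) for arterial endothelium. For endocardium they were 616 and 2906 (main 1173), and for pericytes 355 and 2257 (main 631). No paired analysis was possible because there is 1 group and no test. Cell number limits the small classes, with 33 Tbx3-positive atrial cells and 23 cells of the top arterial band. Their medians were 8427 and 12883 counts per cell, but only 747 and 1312 genes had enough summed counts for the rule.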

Other observations

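Ventricular cardiomyocytes with a thinned count of Gja5 but none of Tbx3 (145 cells) were set beside those without Gja5 (3628 cells), as a description of cells chosen for Gja5. Cpne5 was at 76.0 and 107 CPM in Gja5-positive cells, against 3.16 and 1.55 CPM in Gja5-negative cells. Irx5 was at 116 and 107 CPM, against 23.0 and 20.1 CPM, and Irx3 at 90.5 and 73.7 CPM, against 22.6 and 20.5 CPM. Gjc1 was at 72.4 and 102 CPM, against 35.8 and 33.8 CPM, while Gja1 was at 621 and 566 CPM, against 663 and 648 CPM. Gja5-positive cells without a Tbx3 count thus shared Cpne5, Irx3, Irx5 and Gjc1 levels above those of Gja5-negative cells in both replicates. Mitochondrial counts had a median of 32.3% in Gja5-positive and 41.6% in Gja5-negative cells, and their part was not tested.

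The 3148 haemoglobin-rich barcodes left out of the classes carried 246 and 217 CPM of Gja1, at a median of 2381 counts per barcode.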
